A study of Homo sapiens with 46 samples.

Results

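The experiment removed Ku70 from HEK293 cells, a human embryonic kidney cell line, for 8 days. Ku70, encoded by XRCC6, pairs with Ku80, encoded by XRCC5, in a ring that slides onto DNA ends. The ring recruits the kinase DNA-PKcs, encoded by PRKDC, for non-homologous end joining, and it also binds structured RNA and telomeres. Human cells are known to depend on Ku for growth, unlike mouse cells.

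RNA was sequenced from 6 libraries of the series' 46, all 6 of the libraries made from HEK293. In both arms the cells were clones of the same genotype, Ku70-/- by CRISPR with an ectopic Ku70 whose expression needs doxycycline. The genotype labels number the ectopic protein upward from Ku70 with each sample, which was read here as a spreadsheet fill-down of Ku70. The 3 clones are called Sa11, SB and TI, and each gave 1 library per arm. The first arm was washed and kept in medium without doxycycline for 8 days. The second arm was kept in 1 µg/ml doxycycline and was collected before withdrawal. Cells that express their own XRCC6, taken through the same withdrawal, were not used here, so the removal of doxycycline, the days in culture and the loss of Ku70 cannot be told apart. The comparison asks how the whole transcriptome differs in the same clone after Ku70 is withdrawn. Values below are listed in the clone order Sa11, SB, TI, and levels are CPM, counts scaled to 1 common library total with TMM factors.

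Libraries held 19.57 to 23.71 M estimated counts without doxycycline and 23.58 to 28.48 M with it. Of 30160 genes in the table, 15549 had enough counts to be tested. Of the 13 listed HEK293 markers 12 were tested, and their summed level was 1037 to 1214 CPM without doxycycline against 1328 to 1427 CPM with it. The colon epithelial markers, which would mark HCT116 cells, were sparse: 4 of 14 were tested, and CDX1, KRT20 and TFF3 had no count in any library. Their sum was 50.0 to 70.1 CPM without doxycycline against 131 to 158 CPM with it, most of it EPCAM; CDX2 and CEACAM5 were called higher. Blood, endothelial and stromal markers summed to 67.9 to 122 CPM without doxycycline against 59.2 to 75.0 CPM with it. The first principal component of log2 CPM held 49.7% of the variance and separated the arms, at -42.1, -7.90 and -57.8 without doxycycline against 36.1, 42.9 and 28.9 with it. The SB library without doxycycline lay nearest to the doxycycline libraries on this axis and apart on the second one, which held 24.1%.

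XRCC6 mRNA fell in every clone. It stood at 419, 605 and 339 CPM without doxycycline, against 3220, 3529 and 2269 CPM with it. The groups did not overlap, as held for 19.7% of all genes upward and 20.8% downward, and the level with doxycycline was 6.69 times that without. The log2 fold change, here and below the level without doxycycline over that with it, was -2.74 ± 0.11 (SE), with an adjusted p of 5.59e-08 from edgeR's quasi-likelihood test. On the length-scaled TPM values the difference was larger, at 297, 486 and 277 TPM without doxycycline against 4946, 4983 and 3687 TPM with it (limma log2 fold change -3.71). The table counts the edited endogenous gene (chr22:41621295-41664041, GRCh38.p14) and the ectopic copy together, and Ku70 protein was not measured here.

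XRCC5, the partner subunit, stood at 1068, 554 and 1311 CPM without doxycycline, against 873, 636 and 1020 CPM with it, and the log2 fold change of 0.15 ± 0.12 did not pass the test (adjusted p = 0.346). Without clone SB, where XRCC5 went the other way, it passed as higher. PRKDC stood at 1430, 1210 and 1390 CPM without doxycycline, against 1275, 1224 and 1302 CPM with it (log2 fold change 0.08 ± 0.09, adjusted p = 0.549). Of the 16 genes of end joining and DNA-PK, 3 others changed, all upward (18.8%, against 16.9% of all genes). They are DCLRE1C (log2 fold change 1.09), which encodes the nuclease Artemis, LIG4 (0.80), the ligase that closes the break, and APTX (0.39), which trims failed ligation ends; the call of APTX was lost without Sa11.

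**Figure D1:**
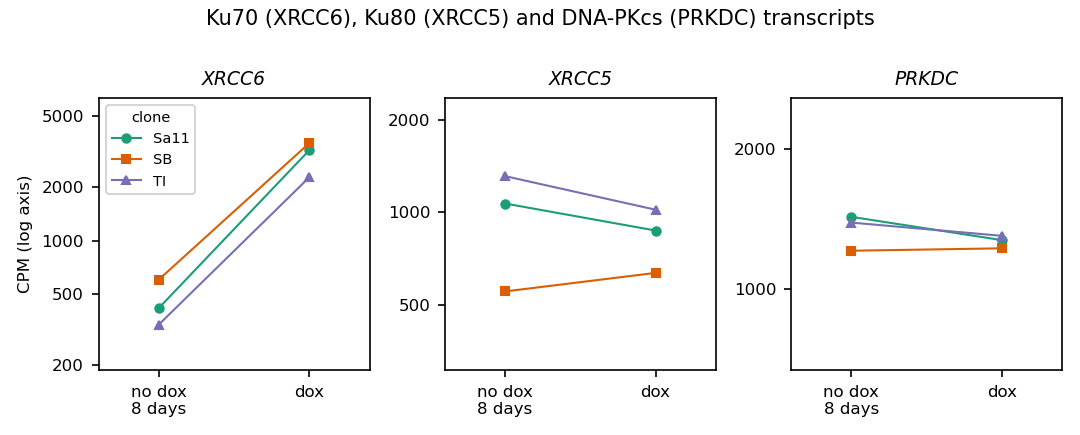
Level of XRCC6, XRCC5 and PRKDC in CPM on a log axis, with 1 point per library and lines that join the libraries of a clone, 8 days without doxycycline at left and with doxycycline at right. XRCC6 drops in all 3 clones, to 339 to 605 CPM without doxycycline against 2269 to 3529 CPM with it, while both other genes overlap between the arms.

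At an adjusted p under 0.05, 34.8% of all genes tested were called. Higher without doxycycline were 2634 genes (16.9%) and lower 2770 (17.8%). At least 2-fold differences numbered 459 higher and 730 lower. The direction was the same in all 3 clones for 2601 of the higher and 2758 of the lower genes, and the median log2 fold change over all genes was -0.0054. Of the 3 clones, leaving out Sa11 lowered the counts most, to 1482 genes higher and 1675 lower. This left SB and TI, the least alike pair of each arm (chi-square of counts per degree of freedom 55.7 without doxycycline and 31 with it). Changes were widest in TI (SD over genes 0.773, against 0.725 in Sa11). Whether calls lost without Sa11 stem from Sa11 or from the pair that remains was not tested. With the treatment alone in the model, without the clone, 1731 genes were higher and 1695 lower. SB moved least, with a median change of 0.469 over the genes called higher, against 0.688 in Sa11 and 0.705 in TI.

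Immediate early genes, which cells switch on within minutes of a stimulus, had the highest median change of the lists with at least 10 tested members. They encode mostly transcription factors such as the AP-1 subunits FOS and JUN, and the feedback proteins that shut the same signals down. Of the 23 listed, all tested, 19 rose and 0 fell, against 16.9% of all genes higher, and the median log2 fold change was 1.39. FOS stood at 24.9, 33.5 and 31.1 CPM without doxycycline, against 3.39, 2.82 and 3.12 CPM with it, which is 9.54 times higher (log2 fold change 3.25 ± 0.19, adjusted p = 1.87e-06). EGR1, a zinc-finger activator of the same early wave, stood at 51.5, 49.3 and 60.4 CPM, against 11.04, 6.41 and 6.998 CPM with doxycycline (log2 fold change 2.75 ± 0.18, adjusted p = 3.43e-06). KLF10, induced early by TGF-beta, stood at 92.4, 86.8 and 95.4 CPM, against 26.4, 23.4 and 23.8 CPM with doxycycline (log2 fold change 1.90 ± 0.11). For all 3 genes every clone's level without doxycycline exceeded every level with it. ARC, a neuronal immediate early gene outside the list, was among the 10 largest rises at 11.7, 18.3 and 9.53 CPM, against 1.23, 1.11 and 1.99 CPM with doxycycline (log2 fold change 3.15 ± 0.32). GADD45B, a stress-induced activator of p38 and JNK signalling that is also outside the list, reached 138, 337 and 174 CPM, against 22, 42.5 and 35.2 CPM with doxycycline (log2 fold change 2.65 ± 0.14). The 4 members that were not called were NR4A1 (0.21), MYC (0.28), FOSL2 (0.29) and DUSP6 (0.33). MYC differed between clones, with changes of 0.32 in Sa11, 1.04 in SB and -0.52 in TI.

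The DNA before these genes is shown because serum response factor is known to bind a CArG box, and CREB the cyclic AMP response element, at early gene promoters. RefSeq promoter sequence (GRCh38.p14) was matched for 11878 of the 15549 genes tested, and the 250 bases before the start were searched on both strands. The CArG box was present in 1 of 15 higher immediate early genes with a sequence, EGR1, against 1.01% of all genes. The cyclic AMP response element, TGACGTCA, was present in 2 of the 15, DUSP1 and JUND, against 2.77% of all genes. The 140 bases before the start of EGR1 (chr5:138465339-138465478, plus strand) hold 2 CArG boxes, and those of DUSP1 (chr5:172771196-172771335, minus strand) hold 1 cyclic AMP element, both shown in capitals.
EGR1: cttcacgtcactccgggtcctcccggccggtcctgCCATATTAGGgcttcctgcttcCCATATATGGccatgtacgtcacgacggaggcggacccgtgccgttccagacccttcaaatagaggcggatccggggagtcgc
DUSP1: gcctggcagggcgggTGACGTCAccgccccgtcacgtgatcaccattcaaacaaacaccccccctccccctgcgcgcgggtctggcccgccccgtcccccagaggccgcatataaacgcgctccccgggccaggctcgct
DUSP1, a phosphatase that switches off MAP kinases and was picked for its motif after its values were seen, stood at 51.7, 81.3 and 58.7 CPM without doxycycline, against 23.8, 24.5 and 23.6 CPM with it.

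Targets and inhibitors of NF-kB rose as well, and most in clone SB. NF-kB is a family of dimeric factors held in the cytoplasm by IkB proteins, and it is known to induce chemokines together with its own inhibitors. Of 28 tested members 14 rose (50.0%) and 3 fell (10.7%), against 16.9% and 17.8% of all genes, with a median log2 fold change of 0.53. The clone medians were 0.43 in Sa11, 1.21 in SB and 0.58 in TI. CXCL1, a chemokine that attracts neutrophils, stood at 8.36, 36.6 and 15.6 CPM without doxycycline, against 1.31, 2.52 and 2.32 CPM with it (log2 fold change 3.13 ± 0.26, adjusted p = 1.45e-05). CXCL8, the chemokine IL-8, stood at 14.3, 96.9 and 21.8 CPM, against 5.50, 10.2 and 5.91 CPM with doxycycline (log2 fold change 2.22 ± 0.28, adjusted p = 0.000129). In both genes the groups did not overlap and SB was the highest library. CXCL2 (log2 fold change 2.903) and CXCL3 (2.02), encoded near CXCL1 and close to it in sequence, moved alike, and reads shared among them cannot be apportioned with certainty. Among the inhibitors, NFKBIA, which encodes IkB-alpha, stood at 72.4, 280.0 and 96.2 CPM, against 26.2, 49.8 and 35.1 CPM with doxycycline (log2 fold change 1.81 ± 0.18, adjusted p = 3.36e-05). NFKBIB, which encodes IkB-beta, stood at 79.9, 69.8 and 66.8 CPM, against 22.9, 27.6 and 24.5 CPM with doxycycline (log2 fold change 1.53 ± 0.13), with no excess in SB. The members that fell were PLAU, SDC4 and TNFAIP8. Of the listed cytokines and chemokines beyond the CXCL genes none rose, CXCL16, IL18 and IL12A fell, and 13 of 33 had too few counts to test. TNF, one of those, had 0, 76 and 4 raw counts without doxycycline, against 6, 0 and 1 with it.

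A kappaB site was found in 7 of the 11 higher members with a promoter sequence, against 6.01% of all genes, and in 11 of 25 tested members. The 140 bases before CXCL1 (chr4:73869253-73869392, plus strand), CXCL2 (chr4:74099196-74099335, minus strand) and NFKBIA (chr14:35404750-35404889, minus strand) show where it lies, in capitals. The overlapping pair of matches begins 79 and 78 bases before the start in CXCL1 and 78 and 77 bases before it in CXCL2, and the match of NFKBIA begins 81 bases before its start.
CXCL1: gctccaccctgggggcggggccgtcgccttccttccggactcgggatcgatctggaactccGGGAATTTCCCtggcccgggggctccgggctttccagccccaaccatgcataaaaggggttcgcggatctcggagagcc
CXCL2: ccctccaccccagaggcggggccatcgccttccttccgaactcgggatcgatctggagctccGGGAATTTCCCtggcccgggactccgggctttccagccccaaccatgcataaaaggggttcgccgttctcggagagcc
NFKBIA: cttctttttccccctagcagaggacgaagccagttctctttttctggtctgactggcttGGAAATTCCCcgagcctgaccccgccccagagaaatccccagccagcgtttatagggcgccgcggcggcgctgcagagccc
A match of letters is a description and shows no binding.

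Genes of the integrated stress response rose in Sa11 and TI and less in SB. In this response, phosphorylation of eIF2 lowers translation in general and raises that of the factor ATF4, whose targets include DDIT3, TRIB3 and amino acid enzymes. Of 36 members 20 rose (55.6%) and 1, CBS, fell (2.78%), against 16.9% and 17.8% of all genes. The median log2 fold change was 0.51, with clone medians of 0.75 in Sa11, 0.17 in SB and 0.58 in TI. ATF3, a factor shared with the immediate early list, stood at 125, 114 and 159 CPM without doxycycline, against 41.5, 41.6 and 36.7 CPM with it (log2 fold change 1.72 ± 0.13, adjusted p = 9.29e-06). DDIT3, which encodes CHOP, stood at 101, 81.3 and 115 CPM, against 34.9, 37.97 and 27.9 CPM with doxycycline (log2 fold change 1.56 ± 0.16). PPP1R15A, which encodes the subunit GADD34 that restores translation, stood at 294, 385 and 442 CPM, against 129, 176 and 120 CPM with doxycycline (log2 fold change 1.401 ± 0.14). For these 3 genes the groups did not overlap. INHBE, an activin subunit and the largest rise of all genes that met the naming rule, stood at 100, 39.0 and 105 CPM, against 2.92, 7.75 and 3.48 CPM with doxycycline (log2 fold change 4.06 ± 0.41, adjusted p = 3.90e-05). Its change was 5.06 in Sa11, 2.32 in SB and 4.88 in TI. The serine and one-carbon enzymes on the list did not pass, among them PHGDH (-0.07), PSAT1 (-0.26), SHMT2 (-0.05) and MTHFD2 (-0.27). ASNS, asparagine synthetase, had a log2 fold change of 0.43 and an adjusted p of 0.0531, with changes of 0.78 in Sa11, -0.19 in SB and 0.70 in TI.

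The amino acid response element, TGATGNAA, was found in 4 of 18 higher members with a promoter sequence, against 1.52% of all genes. FGF21, a stress-induced hormone picked for its motif after its values were seen, has it 54 bases before the start on the opposite strand (chr19:48755384-48755523, plus strand, match in capitals).
FGF21: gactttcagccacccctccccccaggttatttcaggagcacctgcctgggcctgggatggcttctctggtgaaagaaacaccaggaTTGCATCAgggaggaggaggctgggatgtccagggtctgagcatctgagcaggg
FGF21 was near the detection limit, at 4.04, 1.52 and 2.28 CPM without doxycycline, against 0.212, 0.649 and 0.145 CPM with it.

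Of 18 genes of the unfolded protein response, the chaperones and folding enzymes of the endoplasmic reticulum and their regulators, 3 rose, 6 fell and 9 were not called, against 16.9% of all genes higher and 17.8% lower. The median was -0.12, and 3 fell without Sa11 or with limma on TPM. PDIA6, a disulfide isomerase, stood at 155, 147 and 168 CPM without doxycycline, against 316, 272 and 342 CPM with it (log2 fold change -0.98 ± 0.10, adjusted p = 4.18e-05). HSPA5, the chaperone BiP, had overlapping levels of 103, 137 and 134 CPM without doxycycline, against 123, 120 and 138 CPM with it (log2 fold change -0.03 ± 0.11). XBP1 rose (log2 fold change 0.86), at 280, 109 and 300 CPM without doxycycline, against 136, 97.4 and 117 CPM with it, and lost its call with DESeq2 and without the clone in the model.

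Genes of ribosome assembly rose as a block. The proteins they encode cut, modify and fold ribosomal RNA in the nucleolus or transcribe it with RNA polymerase I. Of 39 members 34 rose (87.2%) and 0 fell, against 16.9% and 17.8% of all genes, and without Sa11 22 rose. The median log2 fold change was 0.65, with clone medians of 0.73, 0.52 and 0.65. UTP4, of the complex that begins processing of the small subunit's RNA, stood at 88.9, 50.6 and 90.8 CPM without doxycycline, against 28.52, 23.1 and 35.2 CPM with it (log2 fold change 1.38 ± 0.13, adjusted p = 2.48e-05). RRP12, an export factor of ribosomal subunits, stood at 168, 140 and 160 CPM, against 66.1, 70.7 and 64.7 CPM with doxycycline (log2 fold change 1.21 ± 0.11, adjusted p = 2.49e-05). In neither gene did the arms overlap. Among the 5 that did not pass were UBTF (-0.19), the polymerase I factor, and the abundant nucleolar proteins NCL (0.14) and FBL (0.21).

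The ribosomal proteins themselves did not follow. Of 47 genes 1 rose (2.13%) and 5 fell (10.6%), against 16.9% and 17.8% of all genes. The median was -0.05, and none of the 5 fell without Sa11. Among translation factors 12 of 31 rose (38.7%) and 3 fell (9.68%), and without Sa11 3 rose. EIF5, which triggers GTP hydrolysis at the start codon, stood at 1194, 890 and 1578 CPM without doxycycline, against 373, 376 and 461 CPM with it (log2 fold change 1.57 ± 0.12, adjusted p = 8.19e-06). EIF1, which guards start codon choice, stood at 276, 237 and 320 CPM, against 115, 117 and 104 CPM with doxycycline (log2 fold change 1.301 ± 0.12). EIF3B, a core subunit of eIF3, fell to 170, 130 and 184 CPM without doxycycline, against 288, 290 and 368 CPM with it (log2 fold change -0.97 ± 0.11, adjusted p = 6.72e-05). Each of these 3 genes had arms that did not overlap.

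Genes of telomerase assembly were among the telomere genes that rose. Of 16 telomere genes 5 rose (31.2%, against 16.9% of all genes) and 0 fell (against 17.8%), with a median of 0.22. DKC1, the pseudouridine synthase dyskerin of both telomerase and the ribosome list, stood at 412, 330 and 461 CPM without doxycycline, against 197, 195 and 248 CPM with it (log2 fold change 0.91 ± 0.10, adjusted p = 7.69e-05). GAR1 (0.95), its partner, and WRAP53 (0.83), which guides telomerase to Cajal bodies, rose alongside. TERT, the catalytic subunit, stood at 1.03, 0.949 and 0.912 CPM without doxycycline, against 1.95, 1.07 and 1.05 CPM with it, and did not pass (log2 fold change -0.44, adjusted p = 0.41). The shelterin genes TERF1 (-0.07), POT1 (0.06), ACD (0.14), TERF2 (0.21), TINF2 (0.22) and TERF2IP (0.28), which cap the chromosome end, did not pass.

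Interferon-stimulated genes, which cells induce after interferon or viral RNA is sensed, fell more often than they rose. Of 74 listed genes 63 were tested, 3 rose and 18 fell, against 16.9% and 17.8% of all genes, and the median log2 fold change was -0.11. The 18 became 10 without the clone in the model and 10 with limma on TPM. IFI6, an inducible mitochondrial and reticulum membrane protein, stood at 0.809, 1.90 and 1.14 CPM without doxycycline, against 4.15, 5.53 and 3.37 CPM with it (log2 fold change -1.79 ± 0.31, adjusted p = 0.000892). BST2, the virion tether tetherin, stood at 1.44, 1.23 and 1.69 CPM, against 5.84, 5.65 and 4.68 CPM with doxycycline (log2 fold change -1.89 ± 0.29, adjusted p = 0.000411). PARP9, a member of the PARP family, stood at 7.01, 14.5 and 7.21 CPM, against 19.3, 27.5 and 19.3 CPM with doxycycline (log2 fold change -1.26 ± 0.18, adjusted p = 0.000244). All 3 had every library without doxycycline below every library with it. Those that rose were IFIT2, IRF1 and RIGI. IFIT2, an RNA-binding antiviral protein, stood at 1.89, 3.65 and 5.56 CPM, against 0.423, 1.41 and 1.20 CPM with doxycycline (log2 fold change 1.88 ± 0.33, adjusted p = 0.00106). IRF1, a factor that NF-kB also induces, stood at 22.9, 30.4 and 22.03 CPM, against 10.6, 11.2 and 11.6 CPM with doxycycline (log2 fold change 1.16 ± 0.16). RIGI, the sensor of 5′-triphosphate RNA, stood at 18.2, 19.1 and 27.1 CPM, against 10.96, 11.3 and 10.1 CPM with doxycycline (log2 fold change 0.97 ± 0.18, adjusted p = 0.00163).

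Other sensors and signalling genes showed smaller differences. IFIT1 (-0.53, adjusted p = 0.0902), ISG15 (-0.34, adjusted p = 0.288), IFIT3 (0.19), OAS1 (-0.02) and STAT2 (-0.17) were not called; IFIT1 passed without SB. In the RNA-sensing pathway MAVS (-0.15), the adaptor, IFIH1 (-0.08), which encodes MDA5, and EIF2AK2 (0.00), which encodes PKR, were not called either. Of 23 tested genes of that pathway 3 rose and 2 fell, smaller shares than the 16.9% and 17.8% of all genes. The 3 rises became 1 without the clone in the model or without Sa11, and 6 without SB. The falls numbered 0 to 2 under the alternatives. STING1, the adaptor of cytosolic DNA sensing, fell, at 4.81, 4.70 and 3.42 CPM without doxycycline, against 11.3, 9.54 and 9.72 CPM with it (log2 fold change -1.25 ± 0.22, adjusted p = 0.00105). The interferon genes had at most 5 raw counts in any library and were not tested. IFNB1 had 5 raw counts summed over the 3 libraries without doxycycline and 0 with it, and IFNA1, IFNK, IFNL1 and IFNL3 had 0 in each library.

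An interferon-stimulated response element, GAAANNGAAA, was found in 11 of the 15 lower members with a promoter sequence, in 0 of the 2 higher ones and in 23 of 48 tested members, against 2.45% of all genes. The 140 bases before IFI6 (chr1:27672193-27672332, minus strand) hold 2 matches and those before BST2 (chr19:17405631-17405770, minus strand) a pair that overlap, in capitals.
IFI6: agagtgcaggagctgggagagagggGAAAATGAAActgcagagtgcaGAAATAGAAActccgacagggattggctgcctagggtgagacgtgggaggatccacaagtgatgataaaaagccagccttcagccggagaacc
BST2: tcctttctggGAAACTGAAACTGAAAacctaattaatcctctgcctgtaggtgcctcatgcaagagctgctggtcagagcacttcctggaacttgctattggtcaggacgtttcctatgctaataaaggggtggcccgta
These letters stand in members that fell and in members that were not called, such as IFIT1, ISG15 and IFIT3.

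Antigen presentation by MHC class I was lower. Of 18 tested genes 0 rose and 9 fell (50.0%), against 16.9% and 17.8% of all genes. The median was -0.44, and without Sa11 5 fell. ERAP2, which trims peptides for class I molecules, stood at 10.6, 14.99 and 11.6 CPM without doxycycline, against 31.4, 32.5 and 30.02 CPM with it (log2 fold change -1.35 ± 0.15, adjusted p = 6.99e-05). HLA-C, a class I heavy chain, stood at 142, 161 and 106 CPM, against 213, 250 and 203 CPM with doxycycline (log2 fold change -0.72 ± 0.11, adjusted p = 0.0004). B2M, the shared light chain, stood at 269, 310 and 300 CPM, against 399, 422 and 365 CPM with doxycycline (log2 fold change -0.43 ± 0.10), and its call was lost without Sa11. The arms did not overlap for any of these 3. HLA-B (-0.31) was not called, and class I genes share sequence, so reads may be split among them.

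Sterol synthesis fell almost throughout the pathway. The genes are activated together by SREBP2 when membrane sterol is low. Of 21 tested genes 0 rose and 17 fell, against 17.8% of all genes lower, and the median log2 fold change was -0.72, with -0.63, -0.64 and -0.94 in the clones. INSIG1, which retains SREBP in the reticulum and is itself a target, stood at 49.7, 63.4 and 42.7 CPM without doxycycline, against 220, 163 and 259 CPM with it (log2 fold change -2.04 ± 0.18, adjusted p = 2.18e-05). HMGCS1, the synthase at the pathway's entry, stood at 121, 117 and 148 CPM, against 289, 210 and 355 CPM with doxycycline (log2 fold change -1.12 ± 0.11). MSMO1, a late demethylating oxidase, stood at 26.2, 25.6 and 27.0 CPM, against 65.97, 61.2 and 69.7 CPM with doxycycline (log2 fold change -1.32 ± 0.12). None of the 3 overlapped between arms. The 4 that were not called were NSDHL (-0.27), FDFT1 (-0.12), HSD17B7 (-0.01) and MVK (0.08). The sterol regulatory element, TCACNCCAC, was found in 1 of the 13 lower members with a promoter sequence, SREBF2, against 0.876% of all genes.

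Genes of the extracellular matrix fell, mainly in Sa11 and TI. Of 25 tested 0 rose and 15 fell (60.0%), against 16.9% and 17.8% of all genes, and with limma on TPM 7 fell. The median was -0.83, with clone medians of -0.88, -0.34 and -1.05. TIMP1, an inhibitor of matrix proteases, stood at 32.6, 44.1 and 27.1 CPM without doxycycline, against 86.1, 118 and 71.8 CPM with it (log2 fold change -1.41 ± 0.11, adjusted p = 8.95e-06). LAMA4, a laminin chain of basement membranes, stood at 40.2, 43.9 and 39.3 CPM, against 113, 88.5 and 119 CPM with doxycycline (log2 fold change -1.37 ± 0.13). Collagen IV chains COL4A1 (-1.21) and COL4A2 (-1.44) fell, whereas FN1 (-0.20), fibronectin, was not called. EFEMP1, a fibulin of the matrix outside the list, showed the largest fall of the genes that met the naming rule, at 0.315, 2.42 and 0.410 CPM without doxycycline, against 9.90, 10.3 and 8.63 CPM with it (log2 fold change -3.50 ± 0.45). EPCAM, an epithelial adhesion protein, stood at 33.1, 54.6 and 47.3 CPM, against 123, 146 and 143 CPM with doxycycline (log2 fold change -1.63 ± 0.12).

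Among targets of YAP and TEAD, which respond to cell contact and stretch, the shares called were those of all genes. Of 18 members 3 rose and 3 fell (16.7% each), against 16.9% and 17.8% of all genes. CCN2 rose to 6.29, 10.96 and 9.12 CPM without doxycycline, against 1.65, 1.53 and 1.45 CPM with it (log2 fold change 2.48 ± 0.27). ANKRD1 fell to 0.404, 1.57 and 3.28 CPM, against 4.91, 15.6 and 17.3 CPM with doxycycline (log2 fold change -2.99 ± 0.28). Cell density and the state of the medium at collection are not given in the labels, and their part in these differences was not tested.

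Lysosomal enzymes were lower. Of 24 genes of the lysosome and of autophagy 4 rose (16.7%) and 13 fell (54.2%), with a median of -0.55. Over all genes 16.9% were higher and 17.8% lower. CTSB, the protease cathepsin B, stood at 46.2, 44.8 and 32.7 CPM without doxycycline, against 95.1, 86.2 and 81.2 CPM with it (log2 fold change -1.10 ± 0.12, adjusted p = 4.75e-05). LAMP2 (-0.79) and HEXA (-0.77) fell with it, while the autophagy factors TFEB (0.91), UVRAG (0.77), GABARAPL1 (0.38) and MAP1LC3B (0.30) rose. The 4 rises became 1 without the clone in the model, without Sa11 or without TI, whereas at least 11 members fell under every alternative. NRF2 targets, which detoxify, had 0 higher and 5 lower of 18 (27.8%, against 17.8% of all genes). PIR, an iron-binding nuclear protein, stood at 0.764, 0.997 and 1.41 CPM, against 12.7, 6.79 and 10.99 CPM with doxycycline (log2 fold change -3.24 ± 0.30). GSTP1, a glutathione transferase outside the list, stood at 3.01, 0.997 and 1.46 CPM, against 19.5, 6.64 and 20.01 CPM with doxycycline (log2 fold change -3.07 ± 0.27). Of 30 genes of hypoxia and glycolysis 4 rose (13.3%) and 14 fell (46.7%), and 9 fell without Sa11. SLC2A3, a glucose transporter, had a log2 fold change of -1.18, and its call was lost with limma on TPM. PGK1, a glycolytic kinase, had a log2 fold change of -0.59.

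Mitochondrially encoded transcripts made up a smaller share of the counts, 0.929 ± 0.124% without doxycycline and 1.42 ± 0.134% with it (SD, n = 3 each). The libraries gave 1.02, 0.976 and 0.789% without doxycycline, against 1.51, 1.49 and 1.27% with it, and the arms did not overlap. An exact two-sided permutation test, which did not use the pairing by clone, gave p = 0.1, the smallest that 3 against 3 allow. As a share of TPM the values were 1.78 ± 0.251% without doxycycline and 2.76 ± 0.266% with it. Of 13 genes 2 rose (15.4%) and 7 fell (53.8%), against 16.9% and 17.8% of all genes, and without Sa11 4 fell. MT-CO3, a subunit of cytochrome oxidase, stood at 2433, 1727 and 1800 CPM without doxycycline, against 3907, 3527 and 3430 CPM with it (log2 fold change -0.88 ± 0.10, adjusted p = 6.72e-05). MT-ND1 (0.80) and MT-ND2 (0.48), subunits of complex I, were the pair that rose, and they have nuclear copies that may share their reads. Of 38 nuclear genes of the respiratory chain 0 rose and 8 fell (21.1%, against 17.8% of all genes), with a median of -0.16; without Sa11 3 fell. Mitochondrial ribosomal proteins had 11 of 35 higher (31.4%, against 16.9% of all genes) and 2 lower, and 3 higher without Sa11. MRPS35 was not called (-0.14).

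Cell cycle, p53 and repair lists held members called in both directions. Over all genes 16.9% were higher and 17.8% lower. Of 56 cell cycle and E2F genes 9 rose (16.1%) and 9 fell (16.1%), with a median of -0.09, and without Sa11 4 rose and 3 fell. CDC6, which loads the replicative helicase, stood at 256, 224 and 304 CPM without doxycycline, against 148, 160 and 152 CPM with it (log2 fold change 0.76 ± 0.12). MKI67, the proliferation marker, stood at 409, 533 and 487 CPM, against 603, 668 and 544 CPM with doxycycline (log2 fold change -0.35 ± 0.11), and its call was lost without Sa11, without the clone in the model and with limma on TPM. Of 50 p53 targets 8 rose (16%) and 7 fell (14%), with a median of -0.03. CDKN1A, which encodes the cell cycle inhibitor p21, overlapped between the arms at 34.2, 38.7 and 26.6 CPM without doxycycline, against 36.6, 43.5 and 31.7 CPM with it (log2 fold change -0.17 ± 0.12, adjusted p = 0.309). HEK293 cells carry adenoviral E1 genes, whose products are known to bind p53 and RB. AEN (1.05), GADD45A (1.12), PLK2 (1.23) and PPM1D (0.77) were the named p53 targets that rose. Of 26 genes of homologous recombination and alternative end joining 7 rose (26.9%) and 5 fell (19.2%), and without Sa11 3 rose and 1 fell. EXO1, an end-resecting nuclease, stood at 458, 338 and 526 CPM, against 228, 254 and 200 CPM with doxycycline (log2 fold change 0.94 ± 0.15). FANCD2, of the crosslink repair pathway, stood at 130, 122 and 124 CPM, against 205, 196 and 205 CPM with doxycycline (log2 fold change -0.69 ± 0.10). Of 24 genes of damage signalling 7 rose (29.2%) and 3 fell (12.5%), and 0 rose without Sa11. Replication-dependent histones had 9 higher and 9 lower of 36 (25.0% each), members of a family with near-identical copies.

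**Figure D2:**
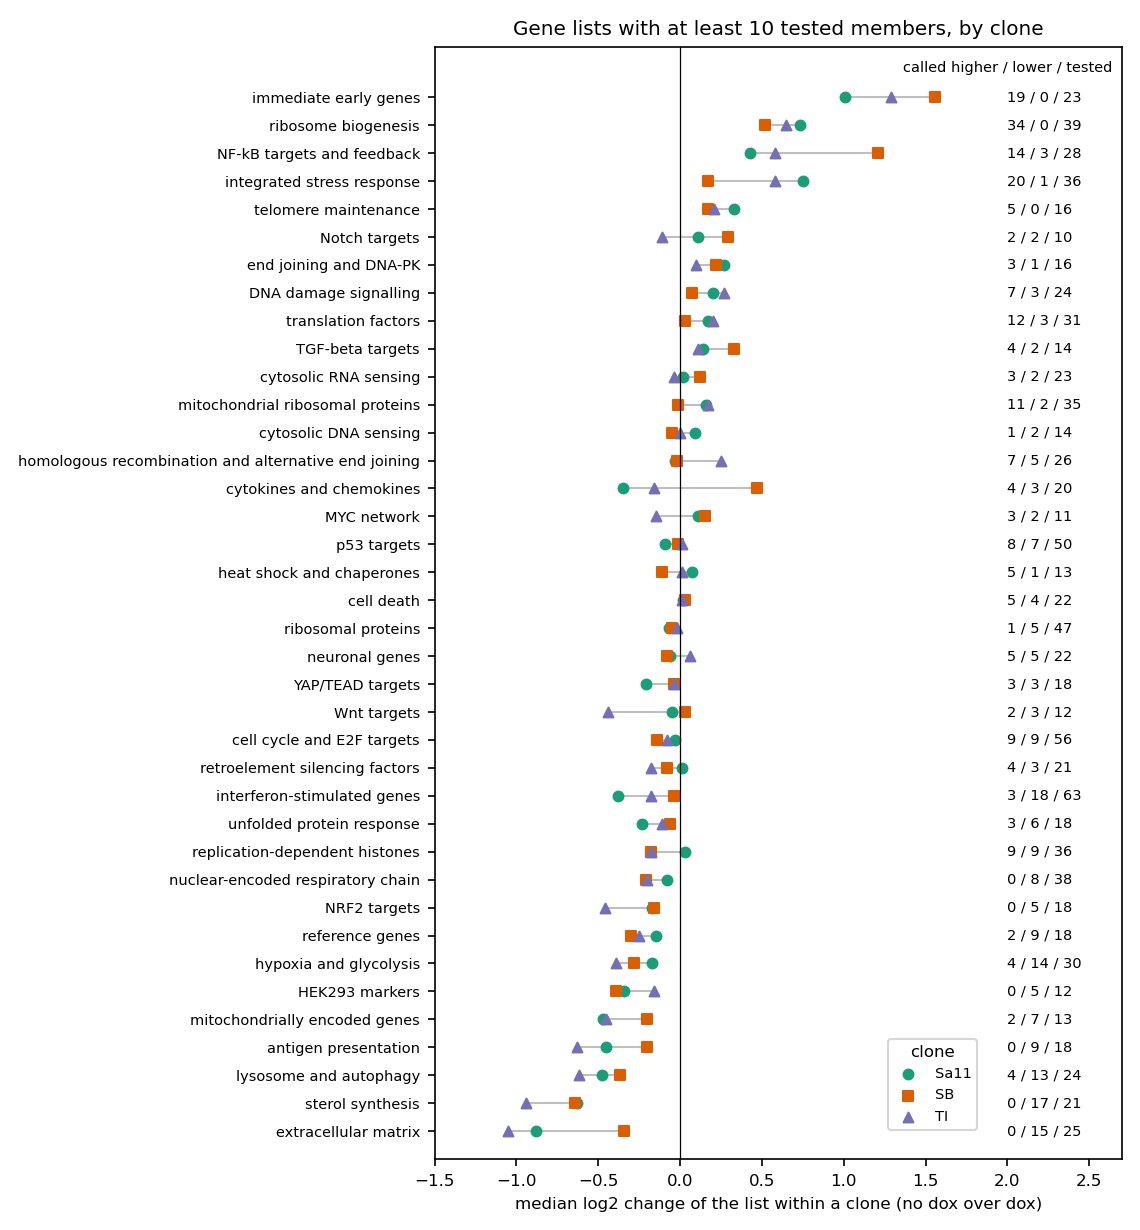
Median log2 change of each gene list within each clone (x axis, no doxycycline over doxycycline), for the lists with at least 10 tested members, with the members called higher, called lower and tested at right. Immediate early genes lie highest, at 1.01 to 1.56, and sterol synthesis and the extracellular matrix lowest in Sa11 and TI, while in SB sterol synthesis (-0.64) is followed by HEK293 markers (-0.39), with SB apart from the other clones for NF-kB targets (1.21) and the integrated stress response (0.17).

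**Figure D3:**
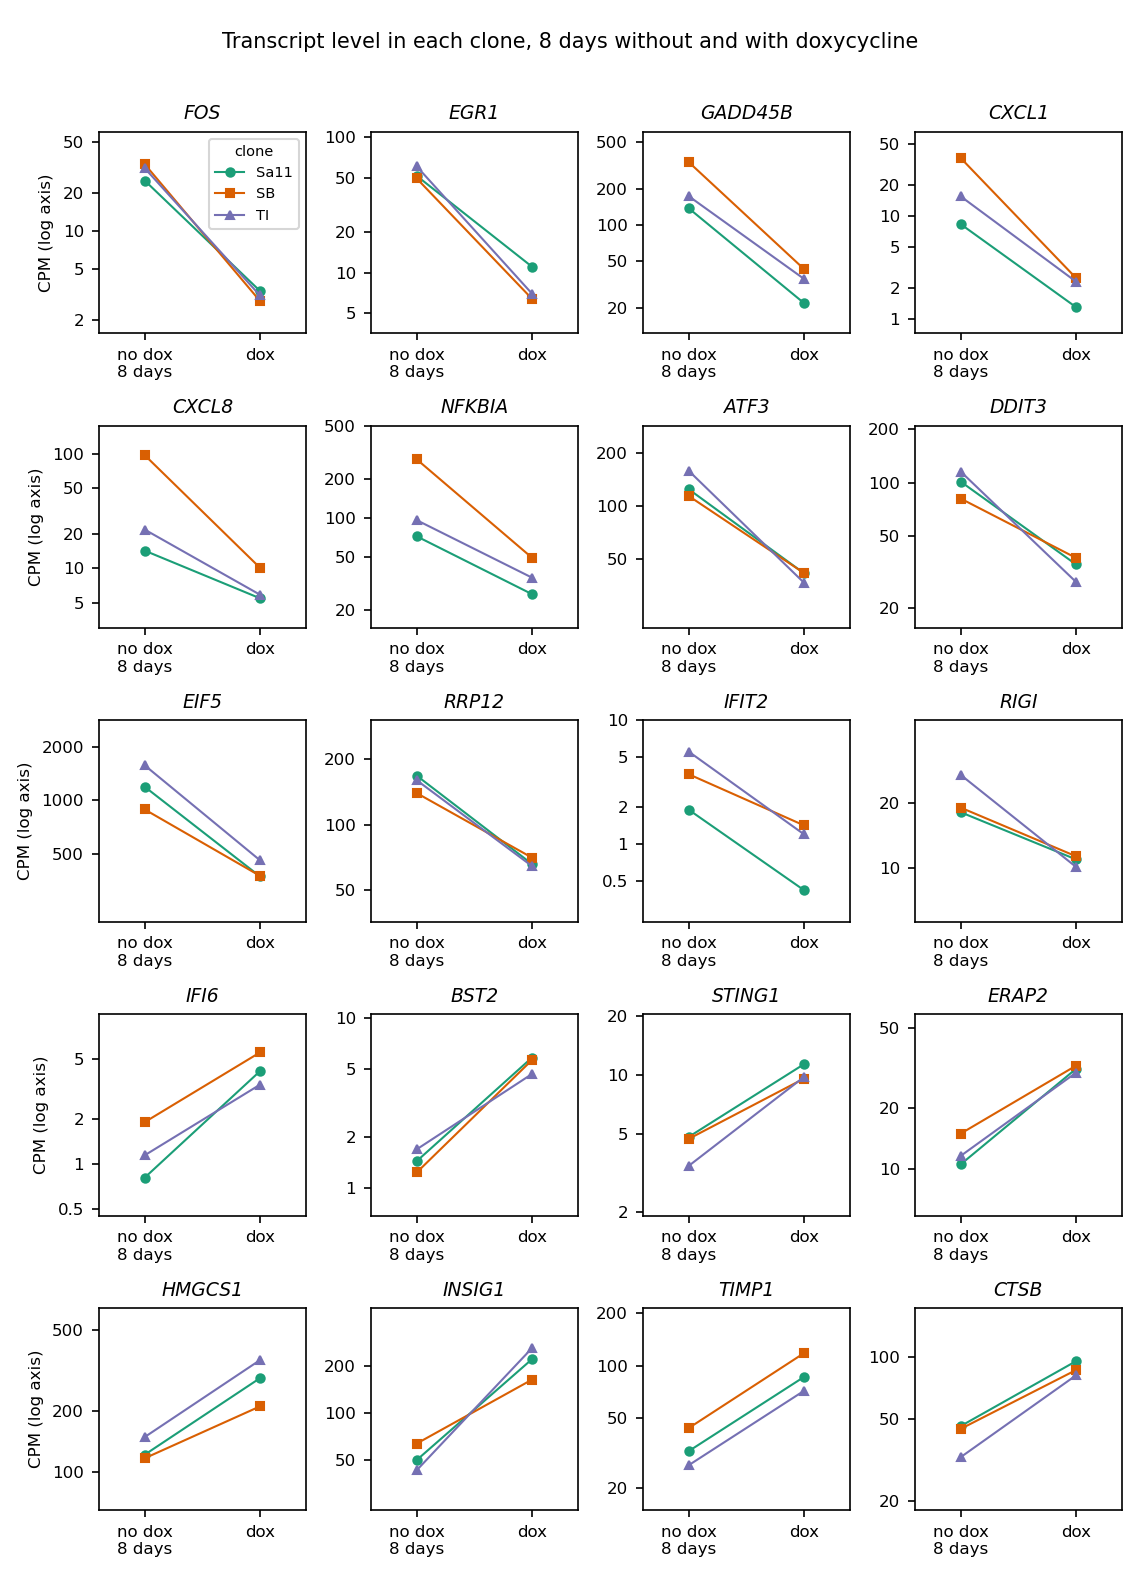
Level of 20 genes in CPM (log axes of differing range), with 1 point per library and lines that join the libraries of a clone, 8 days without doxycycline at left and with doxycycline at right. The 12 genes FOS to RIGI lie higher without doxycycline in all 3 clones and the 8 genes IFI6 to CTSB lower, and SB is the highest library for CXCL1, CXCL8 and NFKBIA.

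Genes commonly used as constant references shifted too. Of 18, 2 rose (11.1%) and 9 fell (50.0%), against 16.9% and 17.8% of all genes. The median was -0.28, and without Sa11 1 fell. GAPDH stood at 1640, 1139 and 1189 CPM without doxycycline, against 1775, 1530 and 1768 CPM with it (log2 fold change -0.37). TBP stood at 66.2, 51.7 and 66.6 CPM, against 39.8, 43.1 and 39.0 CPM with doxycycline (log2 fold change 0.59). Counts relative to the library's total cannot separate fewer cells of a type from less RNA per cell.

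Short and long genes differed in direction. Protein-coding genes were put in 5 equal bins by their span in GENCODE 29. In the shortest bin 597 of 2847 genes were called higher and 14.4% lower. In the longest bin 10.7% were called higher and 22.7% lower. Over all protein-coding genes the shares were 17.2% higher and 18.8% lower. With genes first put in 5 bins by mean CPM, the gap was widest in bin 4, where 39.1% of the shortest and 74 of 569 of the longest genes were higher. In bin 1, the lowest levels, the shares were 7.37% of the shortest and 5.45% of the longest. The median change of the longest bin was -0.14 in Sa11, -0.09 in SB and -0.07 in TI. That of the shortest was 0.09 in Sa11, 0.12 in SB and -0.10 in TI, so TI did not share the positive median. Single-exon genes were higher in 25.6% and lower in 8.53% of 258. By chromosome, genes on chromosome 19 had the largest median, 0.16, with 0.23 in Sa11, 0.24 in SB and -0.02 in TI.

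**Figure D4:**
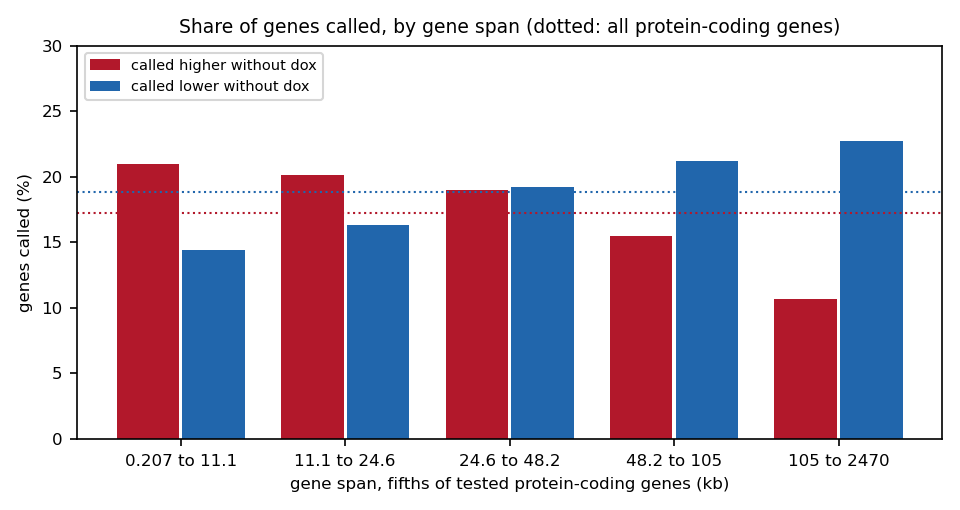
Share of protein-coding genes called higher (left bar of each pair) and lower (right bar) without doxycycline, in percent, by 5 equal bins of gene span in kb from short to long, with dotted lines at the shares over all protein-coding genes. The higher share declines to 10.7% in the longest bin and the lower share climbs to 22.7%.

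Several of the largest rises were pseudogenes, which share sequence with a parent gene, so their counts are uncertain. As a class they were called less often than other genes. Of the 699 tested, 10.2% were higher and 3.72% lower, against 16.9% and 17.8% of all genes. SSBL4P stood at 17.1, 47.5 and 33.2 CPM without doxycycline, against 1.396, 2.86 and 1.89 CPM with it (log2 fold change 3.95 ± 0.19, adjusted p = 3.48e-07). Its parent SSB, which encodes the La protein, had overlapping levels (log2 fold change 0.22, adjusted p = 0.111). ZRSR2P1 rose by 3.83 on the log2 scale and its parent ZRSR2 by 1.06 (adjusted p = 0.000268). DNAJB6P3 rose by 3.33 and its parent DNAJB6 by 0.31 (adjusted p = 0.0312). The parents were chosen after their values were seen. Other genes named by the same rule included PI15, a secreted protease inhibitor, at 9.53, 6.36 and 12.3 CPM without doxycycline, against 0.973, 0.763 and 1.70 CPM with it. TXNIP, an inhibitor of thioredoxin and of glucose uptake, stood at 108, 76.7 and 98.7 CPM, against 25.3, 23.7 and 17.5 CPM with doxycycline (log2 fold change 2.09 ± 0.15). CLU, the secreted chaperone clusterin, fell to 31.6, 60.6 and 34.2 CPM, against 162, 172 and 152 CPM with doxycycline (log2 fold change -2.001 ± 0.15).

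The clones also differed with doxycycline present. ZNF541 stood at 118 CPM in SB with doxycycline and at 0.127 and 0.290 CPM in Sa11 and TI. AMOT, a YAP-binding junction protein, was high in Sa11 and fell in every clone, at 90.6, 7.17 and 5.79 CPM without doxycycline, against 294, 14.9 and 15.8 CPM with it (log2 fold change -1.43 ± 0.14). Its call was lost without the clone in the model. Among genes with a mean of at least 10 CPM, changes that differed most between clones were those of GOLGA8T, at -0.08 in Sa11, -4.34 in SB and -0.60 in TI, and of EHMT2, at 1.58, 0.16 and -1.85. With 1 pair of libraries per clone, differences between clones were not tested.

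Ku was removed by other routes from HCT116 colon carcinoma cells in the same series, in other libraries (polyadenylated RNA, a separate table), so the values stand side by side with no test. Ku80 fused to a degron was depleted for 6 days with indole-3-acetic acid and doxycycline in 3 clones, and set against 3 DMSO libraries of day 2. A floxed XRCC5 allele was excised by Cre with 4-hydroxytamoxifen for 4 days in 2 libraries, and set against 2 ethanol libraries. The series also holds cells without Cre given the same drug or ethanol, which were not used here. In the Cre values an effect of the drug and that of the excision cannot be told apart. Over the interferon-stimulated genes measured in both cell lines the median log2 difference in HEK293 was -0.17, against 2.72 in the degron cells, where 58 of 59 genes lay above 0, and 1.15 with Cre, where 60 of 60 did. ISG15 had -0.34 in HEK293, against 3.73 and 2.08 in HCT116. RIGI had 0.97 in HEK293, against 3.96 and 1.90. For cell cycle genes the medians were -0.09 in HEK293, against -1.57 and -2.16 in HCT116. Sterol synthesis was lower in each of the 3, at -0.72 in HEK293, against -0.70 and -0.61, and INSIG1 at -2.04, against -1.73 and -2.35. EIF3B was lower in each as well, at -0.97 in HEK293, against -2.77 and -0.96. Ribosome biogenesis had 0.65 in HEK293, against -0.09 and 0.08. Immediate early genes had 1.39 in HEK293, against 1.00 and -0.91. The subunit removed, the drug regime, the days, the parental line and the library type differ between the cell lines and cannot be told apart.

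**Figure D5:**
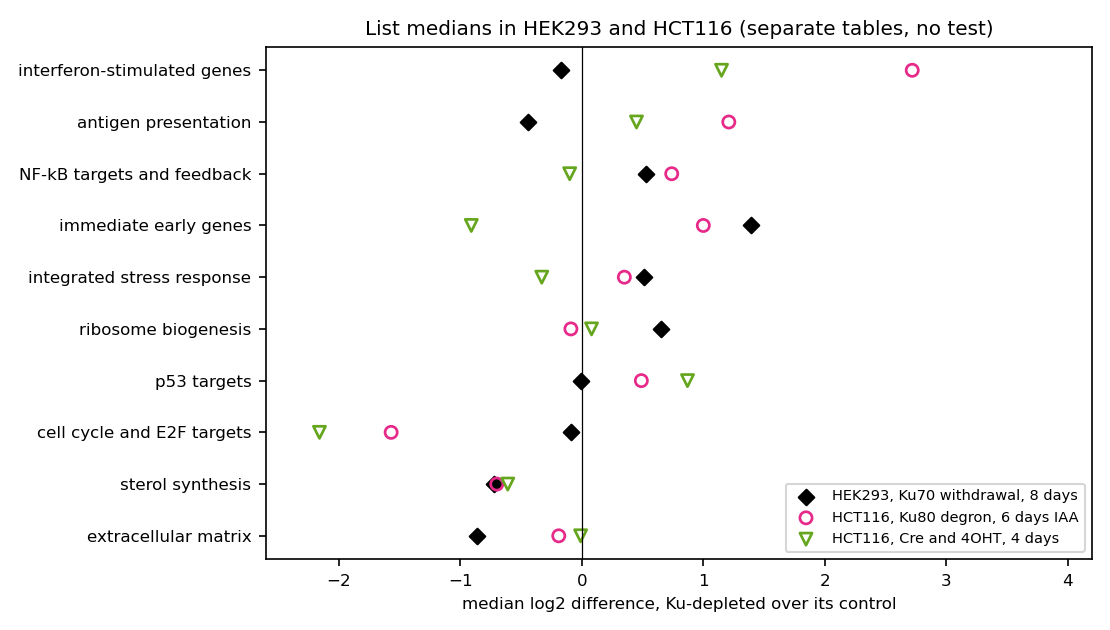
Median log2 difference (Ku-depleted over its control) of 10 gene lists in HEK293 after Ku70 withdrawal (diamonds) and in HCT116 after Ku80 depletion for 6 days (circles) or Cre excision for 4 days (triangles), over the genes measured in each pair. Interferon-stimulated genes lie at -0.17 in HEK293 against 2.72 and 1.15 in HCT116, whereas sterol synthesis lies between -0.72 and -0.61 in each.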

How the data were processed

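Deposited tables hold estimated counts and TPM per gene for 6 HEK293 libraries of ribosome-depleted RNA. Per the labels' protocols these were TruSeq libraries run on an AVITI sequencer. The submitters' processing notes list Salmon 1.10.2, kallisto 0.50.0, DESeq2 and GRCh38 with no role for each. Annotation, strand setting and the handling of shared reads were not stated there. The authors' estimated counts were rounded here; their deposited TPM values are relative to length and library total. There were 0 unmapped sample columns.

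The test was edgeR 4.0.16 (R 4.3.3) with TMM factors of 0.925 to 1.08, filterByExpr, a quasi-likelihood fit with the clone as a block (2 residual degrees of freedom), and Benjamini-Hochberg adjustment over 15549 genes. Libraries pair because both come from 1 clone. Deviations from the arm means correlated at 0.245 in Sa11, 0.467 in SB and 0.3 in TI. Unmatched clones correlated at -0.405 to 0.18, the highest for Sa11 without doxycycline and TI with it. The coefficient of biological variation was 14.2% with the block and 20.8% without it. Standard errors derive from the quasi-likelihood F statistic. Libraries of an arm differed beyond counting noise (chi-square per degree of freedom 12.2 to 55.7). The fit was tested on simulated data. Changes within a clone are differences of log2 CPM with a prior count of 2.

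Alternatives were RLE factors, no filter on counts, DESeq2 (1.42.0), limma (3.58.1) on log2(TPM + 1) and log2(TPM + 0.1) at a mean of at least 0.5 TPM, no block, and each clone left out. At the depths given, genes near 1 CPM rest on few counts.

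The comparison, its 44 gene lists and its named genes were chosen with earlier results of these data known. The rule named the Ku genes and PRKDC, the 10 largest changes and 8 lowest p-values per direction among called genes of 1 sign in the 3 clones at 1 CPM or more, up to 4 called members per list, a fixed set of sensing, p53 and growth genes, and 5 genes each for spread of change and of level between clones. Other list members in the text were chosen after their values were seen.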

Additional observations from a re-analysis of the deposited data

Results flagged for a closer look

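Of the 185 named genes measured in both cell lines, 46 went opposite ways in every clone, at means of at least 1 CPM: 23 were lower in each HEK293 clone after Ku70 withdrawal and higher in each degron clone of HCT116 after 6 days of Ku80 depletion, and 23 the reverse. The difference between the cell lines was not tested, since the tables were normalized separately and the subunit, drug regime, days and library type differ. Most named genes were chosen among those called in HEK293. The share of opposite genes over all genes measured in both cell lines was not computed, so the 46 cannot be read as an excess. Values are log2 fold changes, HEK293 against the degron cells of HCT116. The Cre libraries of HCT116 did not enter the rule. There some listed genes had the sign of HEK293, such as ID2 (0.84), MAP2 (-1.16) and ADM (0.63). Others had the opposite sign, such as IFI6 (2.46) and CDC6 (-2.27).

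Among interferon-stimulated and antigen presentation genes, IFI6 had -1.79 against 6.80, IFIT1 -0.53 (not called) against 4.87, PARP9 -1.26 against 3.10, PARP14 -0.78 against 1.94, TRIM25 -0.60 against 0.75, JAK1 -0.31 against 0.66 and ADAR -0.27 (not called) against 0.64. HLA-C had -0.72 against 1.72, ERAP1 -1.23 against 1.61, ERAP2 -1.35 against 0.97 and B2M -0.43 against 1.36. PRKRA, of RNA sensing, had 0.40 against -0.32.

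CDKN1A had -0.17 (not called) against 1.57. Of cell cycle and repair genes, CDC25A had 0.81 against -1.11, CDC6 0.76 against -0.64, E2F8 0.81 against -1.37, EXO1 0.94 against -1.17, RAD54L 0.68 against -0.90, XRCC3 0.61 against -0.55, TOPBP1 0.39 against -0.55, ATRIP 0.52 against -0.35, RNF168 0.39 against -0.46, WRAP53 0.83 against -0.42 and RTEL1 0.49 against -0.79.

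Mitochondrially encoded MT-CO1 had -0.58 against 0.53, MT-CO2 -0.67 against 0.64, MT-CO3 -0.88 against 0.72 and MT-ATP8 -0.71 against 1.73. ID1 had 1.86 against -1.19, ID2 1.03 against -0.26, ID3 0.95 against -0.57 and TET1 0.44 against -1.83. Others lower in HEK293 were TIMP1 (-1.41 against 1.5), MAP2 (-1.99 against 0.87), P4HA2 (-0.95 against 0.53), HES4 (-0.78 against 1.27), LAMP2 (-0.79 against 0.22) and HEXA (-0.77 against 0.65). Others higher in HEK293 were TAF1D (1.24 against -0.28), MRPL1 (1.22 against -0.22), RPS9 (1.03 against -0.19), ADM (0.84 against -0.36), HRK (0.68 against -0.47), CHORDC1 (0.62 against -0.37) and MLXIP (0.55 against -0.22). With 3 clones per arm, groups were too small for a search for single outlying libraries.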

How the results depend on the processing

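XRCC6 fell under each of the 9 alternatives. Genes called higher numbered 2634, and 1731 without the clone block (no replicate block); leaving out each clone gave 1482 to 3189. Genes called lower numbered 2770, against 1487 and 1473 with limma on log2(TPM + 1) and log2(TPM + 0.1), 1695 without the block, and 1675 to 2891 with each clone left out. The fall in the mitochondrial share was -0.491 percentage points of counts and -0.981 of TPM. Both shares rest on 13 genes and already leave out the 2 rRNA genes, which had no values here, so the planned share without them was not run separately. Of the 190 named genes called besides XRCC6, 137 were called under every alternative and 29 lost their call without the block. The cause was not tested.

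Called genes that changed sign did so with limma on TPM (pseudocounts 1 and 0.1): CBX5 (0.03 and 0.03) and NKD1 (0.08 and 0.04). Uncalled genes that did so there were IFIT3 (-0.03 and -0.07), CDKN1A (0.09 and 0.09), CAD (0.02 and 0.02), EIF2AK2 (0.07 and 0.07) and, with the smaller pseudocount, ZNF541 (0.33). EIF2AK2 also did so with RLE factors (0.01), DESeq2 (0.00) and no block (0.01). With each clone left out, signs differed for EIF2AK2 (-0.14 to 0.12), IFIH1 (-0.20 to 0.05), OAS1 (-0.22 to 0.25), HSPA5 (-0.12 to 0.09), MYC (-0.07 to 0.68), MRPS35 (-0.29 to 0.09), STAT2 (-0.28 to 0.00), EHMT2 (-0.84 to 0.87) and ADAM32 (-0.40 to 0.90).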

Other observations

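ID1, ID2 and ID3, inhibitors of helix-loop-helix factors that respond to BMP and TGF-beta, rose together. ID1 stood at 15.7, 21.02 and 15.1 CPM without doxycycline, against 4.23, 4.62 and 5.26 CPM with it (log2 fold change 1.86 ± 0.20). The log2 fold changes of ID2 and ID3 were 1.03 and 0.95. Of 14 tested TGF-beta targets 4 rose (28.6%) and 2 fell (14.3%), against 16.9% and 17.8% of all genes. Genes of neurons had 5 higher and 5 lower of 22 (22.7% each, against 16.9% and 17.8% of all genes): CHGA, a granin of secretory granules, had a log2 fold change of 2.24, and MAP2, of dendrite microtubules, one of -1.99. Among heat shock genes, 5 of 13 rose (38.5%) and 1 fell (7.69%), with HSPH1 at 0.84. MT2A, a metal-binding metallothionein, fell to 8.81, 5.36 and 3.33 CPM without doxycycline, against 23.8, 13.9 and 24.9 CPM with it (log2 fold change -1.88 ± 0.27). TET1, TET2 and TET3, which oxidise methylated cytosine, had log2 fold changes of 0.44, 0.49 and 0.56, and lost their calls with limma on TPM.

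Over all genes 16.9% were higher and 17.8% lower, and several of the following small lists lay near these shares. Members called higher and lower were 1 and 2 of 14 tested for cytosolic DNA sensing, 0 and 3 of 8 for interferon ligands and receptors, 5 and 4 of 22 for cell death, and 3 and 2 of 11 for the MYC network. They were 4 and 3 of 21 for retroelement silencing factors, 2 and 3 of 12 for Wnt targets, 2 and 2 of 10 for Notch targets and 1 and 1 of 4 for metallothioneins. For snoRNA host genes they were 1 and 0 of 2, for signal recognition particle and polymerase III transcripts 2 and 0 of 6, for HEK293 markers 0 and 5 of 12, for colon markers 2 and 1 of 4, and for blood, endothelial and stromal markers 1 and 0 of 8. The 3 lower Wnt targets became 0 with DESeq2 and without the clone in the model. The 5 lower HEK293 markers became 1 to 4 under the alternatives.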
